A study of Caenorhabditis elegans with 2 samples.

Results

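The genes described here encode the proteins of the cytosolic ribosome of the nematode Caenorhabditis elegans. They were taken as the protein-coding genes whose symbol begins with rpl-, rps- or rla- in the Ensembl 115 annotation of the WBcel235 genome, which has the coordinates of build ce11. The rule found 81 of the 19973 protein-coding genes of the nuclear chromosomes, 47 for the large subunit (rpl-), 31 for the small subunit (rps-) and 3 for the stalk (rla-). The question asked of them was where peaks of the transcription factor ZIP-5 lay relative to their starts.

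ZIP-5 is a basic leucine zipper (bZIP) factor, a family of proteins that bind DNA as dimers. It was expressed from the transgene wgIs544 in strain OP544, which also carries the allele unc-119(tm4063) on chromosome III, as a fusion with a C-terminal GFP-FLAG tag, and was recovered by chromatin immunoprecipitation with an antibody against GFP followed by sequencing (ChIP-seq). Hermaphrodite late embryos were taken 4 hours after synchronization by egg bleaching, in 2 biological replicates that form the only group. Whole embryos were used, so a peak may come from any of their tissues, and the tagged factor was read in addition to whatever the animals make themselves.

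Ribosomal protein genes are among the most highly transcribed genes of growing cells, and their products are needed in nearly equal numbers. In the ribosomes of yeast and mammals, large-subunit proteins surround the site where peptide bonds form and the tunnel through which the new chain leaves. Small-subunit proteins hold the messenger RNA and the decoding site, and the stalk proteins recruit the translation factors. Many genes of C. elegans are trans-spliced, in which a short leader RNA replaces the first part of the transcript, so the 5' end of an annotated transcript can lie downstream of where transcription began.

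The authors' lists give for each entry an interval, a summit (the point of highest enrichment) and a signal value with no stated scale, which ranks entries within a list. The optimal set held 746 entries, of which 730 lay on the nuclear chromosomes, with signal from 95.2 to 2499. The relaxed lists, which hold background as well as peaks, had 4380 entries when called on both replicates together, 6253 for replicate 1 and 6945 for replicate 2. No list gives read counts, so the depth is unknown. A gene was counted where a summit fell in its window, the stretch that begins 1000 bp upstream and ends 200 bp past its outermost annotated start.

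ZIP-5 summits lay in the windows of a higher share of ribosomal protein genes than of other genes in every list. In the optimal set, 16 of 81 did (19.8%, exact 95% interval 11.7 to 30.1), against 648 of 19892 other genes (3.26%, 3.02 to 3.51), and the share over all protein-coding genes was 3.32%. In the list called on both replicates together, 48 of 81 had a summit (59.3%, 47.8 to 70.1), against 2118 other genes (10.6%) and 10.8% of all genes. Replicate 1 gave 47 (58%) of the ribosomal protein genes, where all genes gave 12.6%. Replicate 2 gave 42 (51.9%), where all genes gave 13.6%. Both replicate lists held a summit for 34 (42%), where all genes gave 7.36%. The intervals cover the counting of genes only, and neighbouring genes can share a peak. The same promoters were not set against an immunoprecipitation from animals without the tag, which was not analysed here, nor against their transcription, which was not measured, so the part of either in these shares was not tested. No test was made of the shares, since the genes were chosen with results of these data known.

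**Figure D1:**
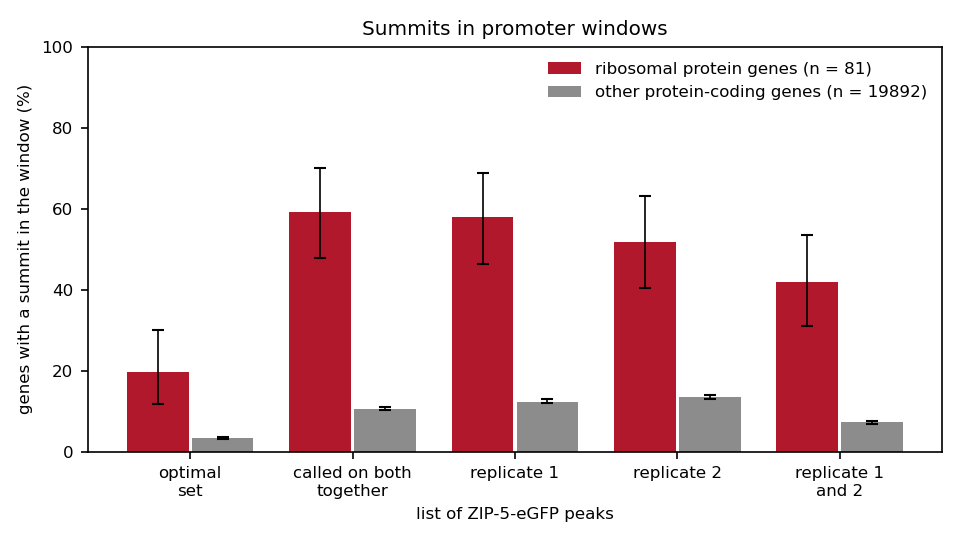
Share of ribosomal protein genes (red, 81 genes) and of other protein-coding genes (grey, 19892 genes) with a ZIP-5-eGFP summit in the window, in percent, in each peak list; bars are shares and lines exact 95% intervals. The red bars stand at 19.8% in the optimal set and between 42% and 59.3% in the other lists, and every red interval lies above the grey bar beside it.

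Both subunits were represented and the stalk was not. The optimal set had a summit at 8 of 31 small-subunit genes (25.8%, 11.9 to 44.6) and 8 of 47 large-subunit genes (17%, 7.65 to 30.8), and these intervals overlap. In the list called on both replicates together the counts were 18 of 31 (58.1%) and 30 of 47 (63.8%). None of the 3 stalk genes rla-0, rla-1 and rla-2 had a summit in any of the 4 lists, which for so few genes allows a share of up to 70.8%.

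The family was sorted into steps by the lists that held a summit. Beyond the 16 genes of the optimal set, 18 had a summit in the list called on both replicates together and in each replicate list, and 13 had one in the joint list and in 1 replicate list. A single gene, rpl-38, had an entry in the joint list alone, and 8 had one in 1 replicate list alone. The remaining 25 genes had none. An entry in any list was present at 56 of the 81 genes (69.1%), where all genes gave 19%. The joint list gave 59.3%, where all genes gave 10.8%. The replicate lists thus added a similar number of percentage points to the family and to all genes. Genes without a joint-list summit were not compared on their own. The steps themselves were not counted over all genes. Over the 16, the 18 and the 13 genes the median signal in the joint list was 158, 65 and 51.7. The optimal summits of the family had the same signal and rank in the joint list, and the optimal set ended at 95.2. The higher median of the 16 was thus fixed by how the steps were made.

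The strongest peaks lay upstream of genes of the small subunit on chromosome IV. rps-23, whose product lines the decoding centre, had a peak of signal 405.6 at chrIV:12391236-12391439, rank 48 of the optimal set, with its summit 285 bp upstream of the start. Its signal was 206.6 in replicate 1 and 206.7 in replicate 2. rps-24 had a pair of peaks with overlapping intervals, chrIV:385100-385543 and chrIV:385457-385688. One had signal 358.3 at rank 73, 565 bp upstream, with 179.3 in replicate 1 and 189.5 in replicate 2. The other had signal 298.7 at rank 115, 356 bp upstream, with 165.7 in replicate 1 and 141 in replicate 2. These 3 peaks had close values in the 2 replicates, and only the peak of rps-23 and the stronger peak of rps-24 stood among the 100 strongest of the set. The 101 bases around each summit are shown because they carry the strongest signal of the family. They are on the strand of the gene, from the RefSeq genome WBcel235 (ce11), and capitals mark CTAGGCCA, a word at 85 of the 730 nuclear peaks of the optimal set (11.6%).
rps-23, chrIV:12391288-12391388, minus strand: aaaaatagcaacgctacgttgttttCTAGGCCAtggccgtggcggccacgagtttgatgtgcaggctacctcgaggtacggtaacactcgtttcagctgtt
rps-24, stronger peak, chrIV:385272-385372, plus strand: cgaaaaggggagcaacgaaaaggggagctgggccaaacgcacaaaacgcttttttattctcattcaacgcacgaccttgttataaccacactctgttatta
rps-24, weaker peak, chrIV:385481-385581, plus strand: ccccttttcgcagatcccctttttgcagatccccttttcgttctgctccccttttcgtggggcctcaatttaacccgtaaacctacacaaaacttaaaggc
The rps-23 window held CTAGGCCA with its centre 21.5 bp from the summit, and neither rps-24 window held it. Both rps-24 windows repeated the letters AAAAGGGG or their reverse complement, 3 times within 100 bp of the stronger summit and 5 times within 100 bp of the weaker one. The RefSeq genome marks 70.6% and 69.2% of the bases within 100 bp of these summits as repeats or low complexity, against a median of 41.3% over the 17 peaks of the family and 37.6% over 440 other promoter peaks. The part of repeats in the rps-24 signal was not tested.

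Among the 17 peaks of the 16 genes, 7 shared another word. All words of 8 letters within 100 bp of the summits were compared with those at 440 other promoter peaks of the optimal set, each word being pooled with its reverse complement, and the leading word was the one with the highest ratio of shares among words at 5 or more peaks. That word, GGCCTAAA, stood at 7 of 17 peaks of ribosomal protein genes (41.2%, 18.4 to 67.1) and at 6 of 440 others (1.36%, 0.502 to 2.94). A rarer word, ATTCAACG, had a higher ratio of shares, at 4 of 17 (23.5%) and 3 of 440 (0.682%). The word was found on these very peaks, so its count there is a description. The 7 sequences are printed from the RefSeq genome (ce11) on the strand on which the word reads GGCCTAAA, in capitals, to show what they share beyond it.
rpl-15, chrIV:654844-654875, minus strand: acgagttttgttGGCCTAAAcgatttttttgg
rps-28, chrIV:1659304-1659335, plus strand: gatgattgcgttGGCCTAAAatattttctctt
rpl-43, chrII:14154575-14154606, minus strand: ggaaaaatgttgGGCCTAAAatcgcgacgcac
rpl-3, chrIII:3867624-3867655, plus strand: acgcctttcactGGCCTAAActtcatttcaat
rpl-7A, chrIV:4390595-4390626, minus strand: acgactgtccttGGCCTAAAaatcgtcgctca
rpl-22, chrII:5055435-5055466, plus strand: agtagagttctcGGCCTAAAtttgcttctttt
rps-27, chrV:104606-104637, minus strand: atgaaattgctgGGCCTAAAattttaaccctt
None of the 7 stretches overlapped an annotated exon. In 6 of the 7 the word read in the direction of the gene, the exception being rpl-43, and in all 7 it lay on the side of the summit that faces the start. Its centre was 66.5 bp from the summit at rpl-15, 65.5 bp at rpl-22, 62.5 bp at rpl-3 and 56.5 bp at rps-28. It was 7.5 bp away at rpl-7A, 25.5 bp at rpl-43 and 85.5 bp at rps-27. The word thus stood beside most of these summits and not on them, and only 2 of the 7 peaks held it within 50 bp.

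The peaks behind these 7 sequences had signal from 95.3 to 267.1 and did not include the 3 strongest of the family. rpl-15 had signal 267.1 with its summit 350 bp upstream of the start, and 130.5 in replicate 1 and 131.5 in replicate 2. rps-28 had 240.3 at 428 bp upstream, with 119.7 and 116.5 in replicates 1 and 2. rpl-43 had 223.6 at 729 bp upstream, the farthest of the 17 peaks, with 124 and 102.3. The large-subunit protein of rpl-3 reaches towards the site of peptide bond formation, and its peak had signal 190.9 at 277 bp upstream, with 92 in replicate 1 and 100.5 in replicate 2. rpl-7A had 108.4 at 28 bp upstream, the closest of the 17, with 60.1 and 47.2. rpl-22 had 98.1 at 231 bp upstream, with 49.6 and 52.4. rps-27, at 630 bp upstream, had 95.3 and was next to last in the optimal set at rank 745, with 58.5 in replicate 1 and 38.4 in replicate 2. The 4 stronger of the 7 peaks ranked between 136 and 273 and the 3 weaker between 638 and 745.

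GGCCTAAA was frequent upstream of the family as a whole, with or without a peak. Within 500 bp upstream of the start it occurred at 22 of 81 ribosomal protein genes (27.2%, 17.9 to 38.2) and at 308 of 19892 other genes (1.55%), and the share over all protein-coding genes was 1.65%. By peak, it stood at 7 of 16 genes with an optimal summit (43.8%), at 8 of 32 with a summit in the joint list alone (25%) and at 7 of 33 with neither (21.2%), and these intervals overlap. The 7 with an optimal summit are not all among the 7 genes printed above, though rpl-15, rpl-22, rpl-3, rpl-7A and rps-28 are in both. The word was over 500 bp from the start at rpl-43 and rps-27, and over 100 bp from the summit at rpl-35 and rps-26. GGCCTAAA was picked from peaks of the genes with an optimal summit, so their share and their part of the 22 are a description. Other genes with an optimal summit had it at 22 of 648 (3.4%). The 25 occurrences at the 22 genes had a median distance of 219.5 bp upstream of the start, and 17 of them read in the direction of the gene. A match is a string of letters and shows no binding. A further word, GCGAGACC, was picked from the family's own joint-list entries outside the optimal set, so its counts in the family are a description. It occurred upstream of 23 of 81 ribosomal protein genes (28.4%, 18.9 to 39.5), where all genes gave 2.37%, and of 0 of the 16 with an optimal summit.

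CTAGGCCA was found at 2 peaks of the family. It lay within 100 bp of the summit at 2 of 17 peaks (11.8%, 1.46 to 36.4), those of rps-23 and rps-26, and at 77 of 440 other promoter peaks (17.5%, 14.1 to 21.4). Within 500 bp upstream of the start it occurred at 2 of 81 ribosomal protein genes (2.47%) and at 1.77% of all genes. Among genes with an optimal summit it occurred at 2 of 16 ribosomal protein genes (12.5%, 1.55 to 38.3). The share of other genes with such a summit was 101 of 648 (15.6%, 12.9 to 18.6), and these intervals overlap. Both words contain TAGGCC or its reverse complement and so can overlap in the genome. Counted on both strands, the shared letters TAGGCC stood at 10 of 17 ribosomal protein gene peaks (58.8%) and 109 of 440 others (24.8%). The 10 include every peak with GGCCTAAA, a word picked from these peaks, so their count is in part a description. Within 500 bp upstream, TAGGCC occurred at 33 of 81 ribosomal protein genes (40.7%) and at 7.66% of all genes.

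Other fixed words were at few of the 17 peaks or at none. TTGCGCAA, the site of C/EBP-type bZIP dimers, and TGACGTCA, the cyclic AMP response element, were at 0 of 17, which allows up to 19.5%, and at 11 (2.5%) and 4 (0.909%) of the 440 other promoter peaks. Within 500 bp upstream they occurred at 0.876% and 2.63% of all genes. ACTCCTCT and GGAGTACA were likewise at 0 of 17, against 43 (9.77%) and 41 (9.32%) of 440, and each at 1.43% of all genes. The letters GGGCGG were at 3 of 17 (17.6%), against 57 of 440 (13%) and 10.9% of all genes, and TGATAA at 1 of 17 (5.88%), against 42 of 440 (9.55%) and 43.7% of all genes. GGGTTCGA, a word of tRNA genes, was at 0 of 17 and at 18 of 440 (4.09%), and at 0.761% of all genes. Matches of this kind were counted on both strands. Every share of all genes here is for 500 bp upstream of the start, so it is not on the measure of the peaks. Within 500 bp upstream, TGATAA was at 38 of 81 ribosomal protein genes (46.9%) and GGGCGG at 8 (9.88%). ACTCCTCT was at 3 (3.7%), GGGTTCGA at 1 (1.23%), and GGAGTACA, TTGCGCAA and TGACGTCA at 0.

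**Figure D2:**
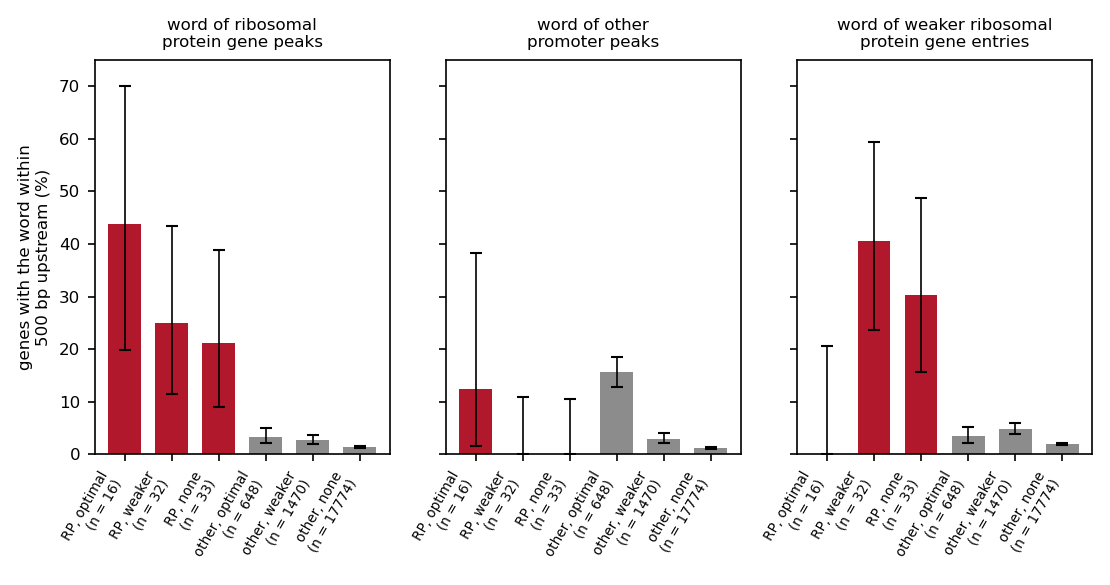
Percent of genes with a word within 500 bp upstream of the start, for ribosomal protein genes (RP, red) and other genes (grey), split by an optimal summit in the window, a summit in the list called on both replicates alone (weaker) or neither (none); bars are shares and lines exact 95% intervals. The left panel, the word of 7 ribosomal protein gene peaks, is at 43.8%, 25% and 21.2% in red and at most 3.4% in grey; the middle panel, the word at 17.5% of other promoter peaks, is highest in grey at 15.6%; the right panel, a word of the weaker ribosomal protein gene entries, is at 0%, 40.6% and 30.3% in red.

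The other 7 genes of the optimal set had peaks without GGCCTAAA near the summit. rps-26, whose product lies where messenger RNA leaves the small subunit, had signal 260.6 at 432 bp upstream. It had 124.1 in replicate 1 and 136.7 in replicate 2, and its summit lay within 100 bp of a tRNA or snoRNA gene. rpl-35, whose protein sits at the exit of the peptide tunnel, had 159.8 at 406 bp upstream, with 80.7 in replicate 1 and 83.2 in replicate 2. rps-19, needed in human cells to mature the small ribosomal RNA, had 144.1 at 293 bp upstream, with 70.1 and 70.9 in replicates 1 and 2. For these 3 genes the values of the 2 replicates were again close. rpl-20 had 156 at 277 bp upstream, with 53.8 in replicate 1 and 94.8 in replicate 2. rps-20 had 151.9 at 237 bp upstream, with 92.4 in replicate 1 and 61.7 in replicate 2. rpl-34 had 138.9 at 239 bp upstream, with 56.5 and 76.8. Here the replicates were further apart, and not in 1 direction. rps-1, the last of the 7, had 99.6 at 383 bp upstream, with 60.9 in replicate 1 and 43.4 in replicate 2.

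The family's peaks were of ordinary strength for promoter peaks. Their median signal was 160 (n = 17), against 168 for the 440 other promoter peaks, and 8 of 17 were stronger than the median of the optimal set. Replicate 1 over replicate 2 signal had a median of 0.992 and ran from 0.568 at rpl-20 to 1.52 at rps-27, against a median of 0.965 and a range from 0.28 to 3.74 over 712 other nuclear peaks. The summits of the 2 replicate lists were a median of 31 bp and at most 83 bp apart at the family's peaks, against 21 bp and 332 bp at the others. With each replicate list cut to its strongest 746 entries, 14 of 17 peaks (82.4%) were in both, against 555 of 712 others (77.9%).

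**Figure D3:**
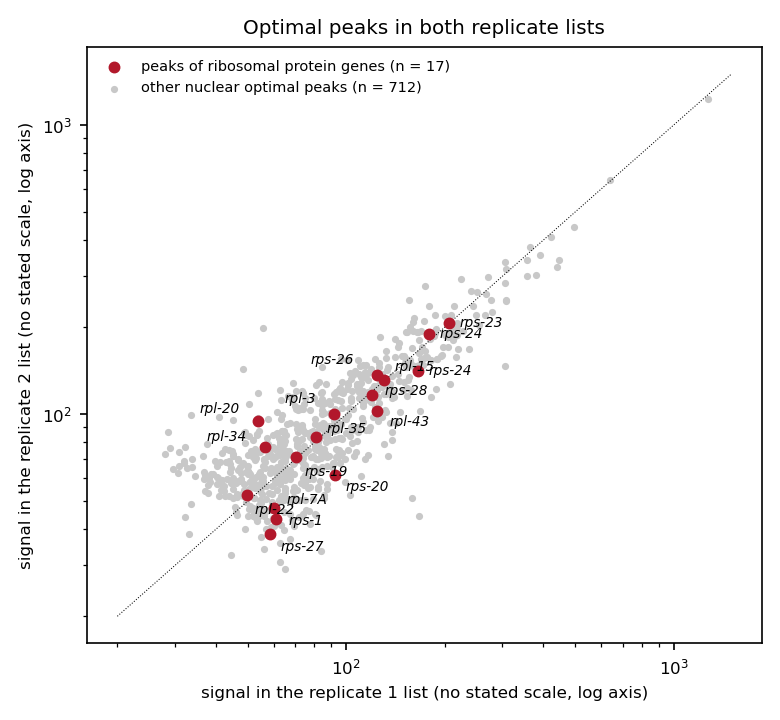
Signal of each optimal peak in the replicate 1 list (x) and the replicate 2 list (y), both without a stated scale and on log axes; red points are the 17 peaks of ribosomal protein genes, with the gene's symbol, grey points 712 other nuclear peaks, and the dotted line marks equal values. The red points follow the line from about the weakest peaks (rps-27, 58.5 and 38.4) to rps-23 (206.6 and 206.7), with rpl-20 farthest above it and rps-20 and rps-27 farthest below.

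Most of these peaks also lay in the window of another gene, so a summit cannot be given to 1 gene by position alone. Of the 17 peaks, 12 were shared with a gene on the other strand, 1 with a gene on the same strand (rps-28 and Y41D4B.4), and 4 lay in no other window (both peaks of rps-24 and those of rpl-3 and rpl-35). For 8 peaks the neighbour's start was nearer. Such sharing was not counted for other promoter peaks, so whether it is particular to the family was not tested. The rps-26 summit was 432 bp from the start of rps-26 and 25 bp from that of tmem-107, a gene of the ciliary transition zone. The rpl-43 summit was 729 bp from rpl-43 and 192 bp from Y48B6A.1, and the rps-27 summit was 630 bp from rps-27 and 118 bp from picd-1. In 3 further cases the starts were more evenly placed: rps-23 at 285 bp with dpm-3, a subunit of a mannosyltransferase, at 249 bp; rpl-22 at 231 bp with ify-1, the securin gene, at 206 bp; and rpl-20 at 277 bp with Y17G9B.5 at 185 bp. rps-20 shared its peak with ekl-4 at 160 bp and rps-19 with hsr-9 at 152 bp. The member was nearer at rpl-15 (350 bp, K11H12.8 464 bp), rpl-34 (239 bp, ppm-1.H 434 bp) and rpl-7A (28 bp, set-21 226 bp), and narrowly at rps-1 (383 bp, ifet-1 385 bp).

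Counting each summit for the nearest start alone left 8 of 81 ribosomal protein genes in the optimal set (9.88%, 4.36 to 18.5), where all genes gave 2.2%. In the joint list it left 30 (37%, 26.6 to 48.5), where all genes gave 8.13%. Replicate 1 gave 30 in this way (37%), where all genes gave 9.7%, and replicate 2 gave 29 (35.8%), where all genes gave 10.6%. A start on the other strand within 1000 bp upstream was present at 48 of the 81 genes and at 3491 other genes. Among genes with such a neighbour, 12 of 48 ribosomal protein genes (25%) and 342 of 3491 others (9.8%) had an optimal summit, with 10% over both. Among genes without one, 4 of 33 (12.1%) and 306 of 16401 others (1.87%) did, with 1.89% over both. In the joint list the counts were 32 of 48 (66.7%, 23.9% over both) with such a neighbour and 16 of 33 (48.5%, 8.03% over both) without. The higher share of the family was therefore seen with and without a head-to-head neighbour.

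The next step held genes whose summits were in the joint list and both replicate lists but not in the optimal set. The strongest, rps-4, had signal 91 at 225 bp upstream in the joint list, with 38.4 in replicate 1 and 44.5 in replicate 2, and the summits of all 3 lists within 1 bp of each other. The optimal set ended at 95.2, just above it, and the weakest member inside was rps-27 at 95.3. rpl-5, whose protein binds the smallest RNA of the large subunit, had 86.6 at 480 bp upstream, with 34 in replicate 1 and 56.2 in replicate 2, and its neighbour col-38, a collagen gene, was nearer. rpl-14 had 83.6 at 327 bp upstream, with 39.5 and 41.6 in replicates 1 and 2. rpl-17 had 78.1 at 404 bp upstream, with 31.2 and 43.1, and aps-3 was nearer. These 4 had a higher signal in replicate 2, but by rank within the list rpl-14 stood higher in replicate 1 (1074, against 1202). rpl-1 had 74.5 at 19 bp upstream, with 41 in replicate 1 and 30 in replicate 2, in a place that also lay in the window of Y71F9AL.9. rps-5 had 73.1 at 750 bp upstream, with 37.6 and 40.6, and rpl-24.2 had 71 at 106 bp upstream, with 31.1 and 40.8. rpl-30 had 64.2 at 343 bp upstream, with 27.7 and 40.9, and pab-1, the gene of poly(A)-binding protein, was nearer.

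All 3 pairs of ribosomal protein genes that lie head to head within 1000 bp had 1 shared entry between their starts in the joint list. rpl-24.1 and rps-10, whose starts are 610 bp apart, shared an entry of signal 65.7 with its summit 165 bp from rpl-24.1 and 445 bp from rps-10. rpl-36 and rps-14, 663 bp apart, shared one of signal 55.9, 408 bp and 255 bp away. rpl-39 and rps-30, 499 bp apart, shared one of signal 50.7, 290 bp and 209 bp away. That entry ranked 3634 of 4380, and of the replicate lists only that of replicate 1 had a summit in their windows. None of the 3 entries was in the optimal set. Other head-to-head pairs were not counted in this way, and 23.9% of all genes with such a neighbour had a joint-list summit. Genes with a joint-list summit and 1 replicate had weaker entries, from 49.4 at rps-25 to 65.2 at rpl-6, and rpl-25.1 in this group had the family's only joint-list summit downstream of a start, 187 bp past it. The 8 genes with an entry in a single replicate list had signal there from 25.5 at rpl-27 to 33.9 at rpl-12, all in replicate 1 except rpl-41.2. The 47 joint-list entries of the family were spread over the list's range, with 19 in the strongest 20% (40.4%, against 29.9% of other promoter entries) and 7 in the weakest 20% (14.9%, against 14%).

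Summits lay in a narrower zone upstream of ribosomal protein genes than upstream of other genes. In the optimal set the strongest summit of each gene had a median of -321.5 bp (quartiles -429 and -267.5, n = 16), where negative is upstream, against -240.5 bp (-438 and -142, n = 648) for other genes. In the joint list the median was -288 bp (-392 and -223.25, n = 48), against -261 bp (-507.75 and -126, n = 2118). Between 500 and 150 bp upstream of the start lay 38 of 48 summits of the family (79.2%, 65 to 89.5), against 946 of 2118 others (44.7%, 42.5 to 46.8). The same zone held 36 of 47 (76.6%) in replicate 1, against 41.8% of others, and 30 of 42 (71.4%) in replicate 2, against 41.2%. In the optimal set it held 12 of 16 (75%, 47.6 to 92.7), against 52.3%. The limits of this zone were chosen after the distances were seen. Downstream of the start there were 0 summits of the family in the optimal set, against 2.01% of others. The joint list had 1 there (2.08%, against 7.93%), replicate 1 had 1 (2.13%, against 9.83%) and replicate 2 had 1 (2.38%, against 10.6%).

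**Figure D4:**
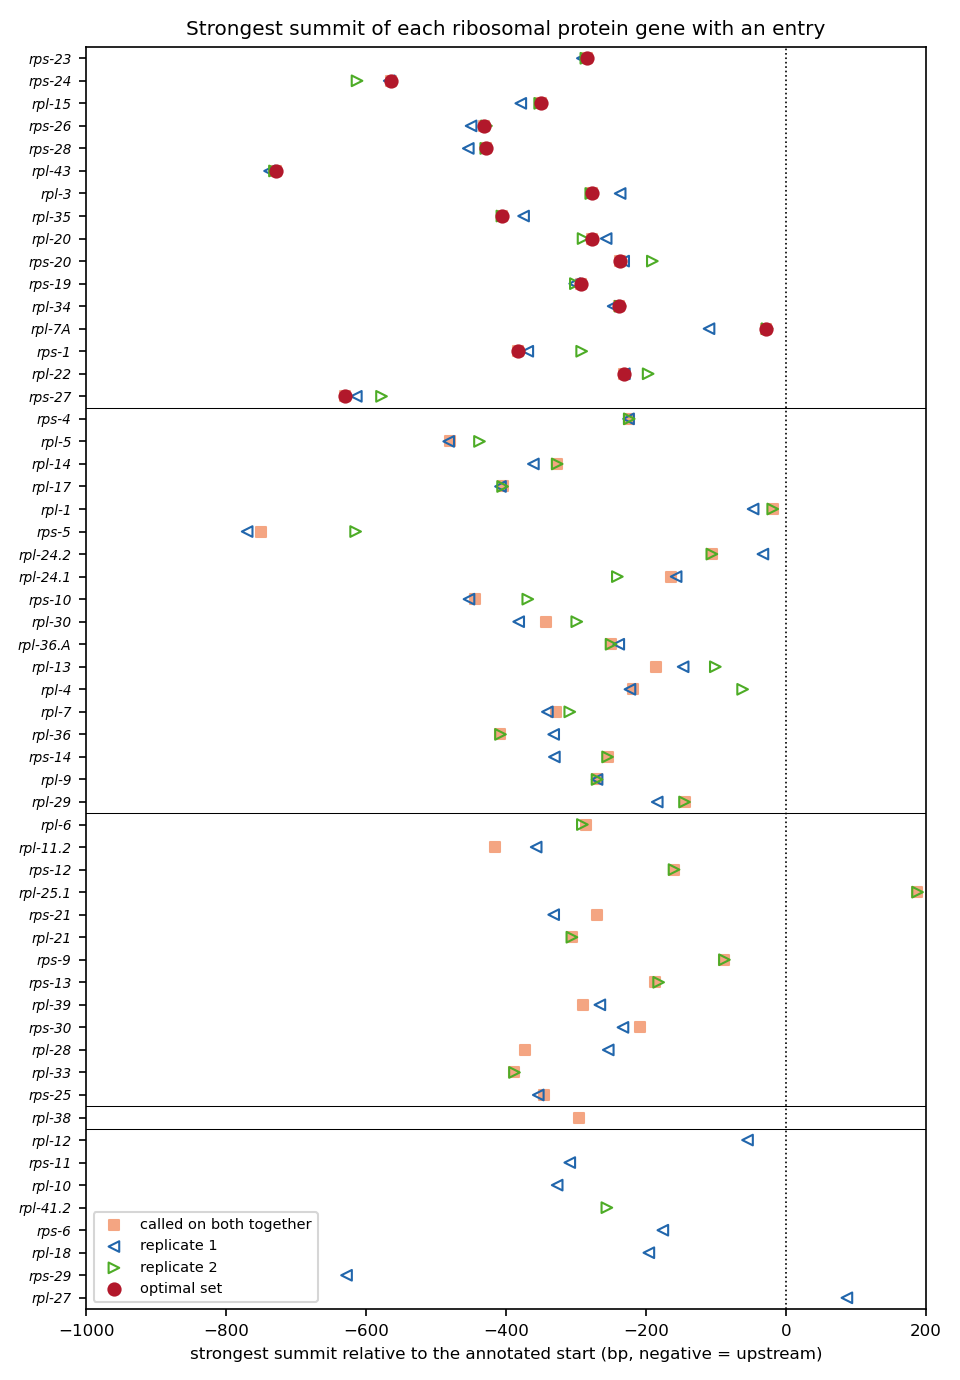
Strongest summit of each of the 56 ribosomal protein genes with an entry in any list, in bp from the annotated start (dotted line, negative is upstream); filled circles are the optimal set, squares the list called on both replicates, and left and right triangles replicates 1 and 2. Lines separate, from the top, the 16 genes of the optimal set, 18 with a joint-list summit and both replicates, 13 with 1 replicate, rpl-38 and 8 with 1 replicate alone, and most symbols lie between 500 and 150 bp upstream.

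**Figure D5:**
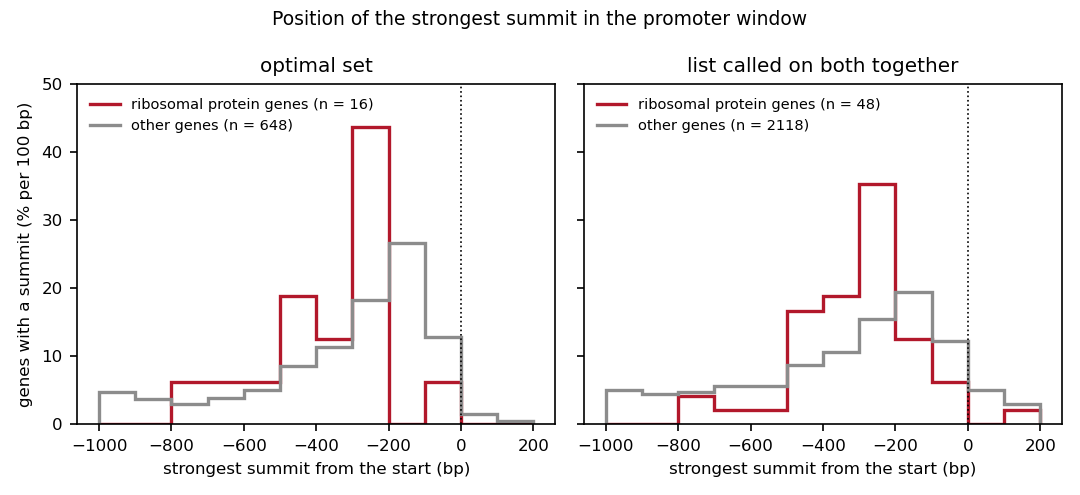
Percent of genes with a summit, per 100 bp of distance from the start in bp (dotted line at the start, negative is upstream), in the optimal set (left) and the list called on both replicates (right), for ribosomal protein genes (red) and other genes (grey). The red line peaks between 300 and 200 bp upstream, at 43.8% and 35.4%, and the grey line between 200 and 100 bp upstream, at 26.7% and 19.5%.

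The replicates placed the summits at the same spot for most of the family. For the 34 genes with a summit in both replicate lists, the strongest summits were a median of 35 bp apart and within 100 bp for 32 genes (94.1%). For 1437 other genes the median was also 35 bp, and 76.8% were within 100 bp. The largest gap in the family was 161 bp.

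The 25 genes without an entry were 10 small-subunit genes, among them rps-0, rps-2 and rps-3, 12 large-subunit genes, among them rpl-2, rpl-19 and rpl-23, and the 3 stalk genes. None of the genes outside the optimal set had an optimal summit within 500 bp of its window, and 2 had one within 1000 bp. These were rpl-11.1, with a summit of signal 109.5 at 1805 bp upstream, and rps-16, with one of 385.5 at 1898 bp upstream. rps-16 follows fib-1, the gene of the nucleolar protein fibrillarin, on the same strand with 110 bp between them, and that summit lay 216 bp upstream of fib-1, with the start of mut-15 nearer still. Genes that closely follow another gene on the same strand can be transcribed from its promoter as an operon. With a gap of at most 500 bp, a limit chosen after the data were seen, 9 ribosomal protein genes did so, and 0 of 9 had an optimal summit (allowing up to 33.6%) and 1 of 9 a joint-list summit (11.1%), rpl-25.1. Other genes that follow so closely had one at 2.38% in the optimal set and 9.01% in the joint list, which is near the shares of these 9. Of the other 72 ribosomal protein genes 16 (22.2%) had an optimal summit and 47 (65.3%) a joint-list one, against 3.45% and 11% of other genes without a close gene upstream. Whether these 9 belong to operons was not read from the annotation.

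Genes that make or assemble the ribosome without being part of it also had ZIP-5 summits. From a list written from general knowledge, 62 of 73 names were found in the annotation. Of these, 8 had an optimal summit (12.9%, 5.74 to 23.9) and 24 a joint-list one (38.7%, 26.6 to 51.9), beside 3.32% and 10.8% of all genes. The interval of the first overlaps that of the ribosomal protein genes. The 8 were 4 of 42 assembly and nucleolar factors, 2 of 7 subunits of RNA polymerase I, which transcribes ribosomal RNA, and 2 of 10 subunits of the RNA-trimming exosome.

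For 5 of the 8 another gene's start was nearer to the summit. fib-1 had the strongest of the 8, with signal 385.5 at 216 bp upstream, and 207.2 in replicate 1 and 191.3 in replicate 2, and the nearer start was that of mut-15. exos-8 had 360.2 at 90 bp upstream, with 165.5 and 192.4, and exos-9 had 345.9 at 983 bp upstream, where pfd-5 was nearer. rbd-1, which is needed to process ribosomal RNA, had 185.8 at 188 bp upstream, with 105.6 in replicate 1 and 71.8 in replicate 2, and T23F6.3 was nearer. The RNA polymerase I genes rpoa-12 and rpac-19 had 168.1 and 125.6, at 180 and 125 bp upstream, and were the nearest genes to these summits, which pas-1 and tbg-1 shared. larp-1, whose mammalian counterpart binds ribosomal protein messenger RNAs, had 142 at 626 bp upstream, where wip-1 was nearer, and nol-16 had 126.4 at 213 bp upstream, where fitm-2 was nearer. ubl-1, which encodes ubiquitin fused to a ribosomal protein, had 90.7 in the joint list, and rack-1, whose protein sits on the small subunit, had 49.3, neither being in the optimal set.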

How the data were processed

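ZIP-5-eGFP ChIP-seq of C. elegans late embryos was deposited as peak lists of 2 replicates in builds ce10 and ce11, and the ce10 lists were not used here. Per the listings that accompany the samples, the authors called a relaxed list on each replicate's alignment with a control and 1 on both alignments together, and derived the optimal set by irreproducible discovery rate (IDR). The aligner, the threshold of IDR and the peak caller were not given in the sources used here. No immunoprecipitation without the tag was analysed here. The signal, a score with no stated scale in the authors' deposited lists, was used for ranks and values within a list. Values of the 2 replicates were also set side by side, which assumes a like scale in both lists. The listed point source gave the summit. Read depth is unknown, and the intervals cover the counting of genes or peaks.

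Windows began 1000 bp upstream and ended 200 bp past the outermost start of each protein-coding gene (Ensembl 115). Overlap of entries meant at least 1 shared bp, and a peak's replicate entry was the overlapping one with the nearest summit. Words were counted on both strands within 100 bp of summits and 500 bp upstream of starts. Shares carry exact Clopper-Pearson 95% intervals. The members, lists, words and windows were chosen with earlier results of these data known. The text names every member with an optimal summit, the 10 strongest others found in all 3 relaxed lists, listed production genes with an optimal summit, and neighbours that share or are nearer to a member's summit. Other genes named were chosen after their values were seen. Alternatives changed the window, the start, the threshold, the word search and the replicate used. The counting was tested on simulated peaks. Python 3.11.15, pandas 2.3.3, NumPy 2.4.6, SciPy 1.17.1 and matplotlib 3.10.9 were used.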

Additional observations from a re-analysis of the deposited data

How the results depend on the processing

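Of 78 alternatives, 60 kept their value within 1.5 times the count or 1 SD of the replicate medians (9.9 bp), and 18 did not. The stronger 50% of the list gave 7 genes with an optimal summit (8.64%, against 1.83% of all genes), 4 with their own start nearest (1.18% of all genes), a median distance of -428 bp, 31 genes in the joint list (38.3%, against 7.13%) and 4 peaks with GGCCTAAA. The median distance was -289 bp with 500 bp upstream, -366.5 bp with 2000 bp, -339 bp from the coding start and -293 bp without summits near tRNA or snoRNA genes. That last setting left CTAGGCCA at 1 peak, and 1 mismatch put it at 8. With as many of the strongest entries as the optimal set holds, the joint list gave 16 genes (3.32% of all genes), the counts of the optimal set itself. Cut in the same way, replicate 1 gave 16 (3.29%), replicate 2 gave 14 (3.27%) and both gave 13 (2.8%). Settings added after the data were seen gave 2 peaks with GGCCTAAA within 50 bp of the summit and 12 genes with it within 250 bp upstream (0.821% of all genes).

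Leaving out 1 replicate meant taking the other replicate list, cut to as many of its strongest entries as the optimal set holds. It gave 14 to 16 genes with a summit (3.27% to 3.29% of all genes). These are the counts of the cut replicate lists given above, not a further check, and they enter the alternatives under both settings. Leaving out 1 replicate also gave 8 to 8 genes with their own start nearest (2.16% to 2.2%) and medians of -335.5 to -326.5 bp. Peaks with CTAGGCCA were then 2 to 2, and those with GGCCTAAA 5 to 7. Without replicate 1, rpl-7A, rps-1 and rps-27 were lost and rpl-5 was gained. With 2 replicates of 1 group, unknown depth and no tag-free immunoprecipitation analysed here, the counts describe these lists only.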

Other observations

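The weaker entries of the ribosomal protein genes had a word of their own. At the 30 joint-list entries outside the optimal set, GCGAGACC stood within 100 bp of 11 summits (36.7%, 19.9 to 56.1), against 30 of 1235 other promoter entries outside the set (2.43%). It was at 0 of the 17 optimal peaks of the family, which allows up to 19.5%, and at 8 of 440 other optimal promoter peaks (1.82%). The word was picked from these entries by its ratio of shares, so the counts describe them. Within 500 bp upstream of the start it occurred at 0 of 16 ribosomal protein genes with an optimal summit, 13 of 32 with a joint-list summit alone (40.6%) and 10 of 33 with neither (30.3%), against 2.26% of other genes and 2.37% of all genes. A site of GCGAGACC between the starts of rpl-39 and rps-30 was counted for both genes. Of the 23 occurrences of GCGAGACC upstream of the family, 16 lay in bases that the RefSeq genome marks as repeats or low complexity. Of all nuclear bases, 35.7% are so marked. For GGCCTAAA it was 10 of 25.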
